A study of Mus musculus with 15 samples.

Results

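The livers of pair-fed mice were compared with those of Vehicle mice across 12274 genes, using 10 of the 15 libraries of an RNA sequencing series: PairFed 1 to 5 and Vehicle 1 to 5. All mice were wild type and of unstated strain and sex. From 8 weeks of age they had eaten a diet for MASH, the steatohepatitis with fat, inflammation and scarring that goes with metabolic dysfunction. They lived at about 29°C and were housed singly after being sorted at random into groups of like body weight and composition. Each PairFed mouse was offered what the GDF15 mice had eaten on the previous day. The GDF15 mice had recombinant GDF15, a hormone that lowers food intake, under the skin at 1 nmol/kg once a day. Their 5 libraries were used here only for reference. For the Vehicle mice the labels give no amount of food, and for the PairFed mice they do not say whether a mock injection was given. The sources used here do not give the length of treatment, the age at which tissue was taken or the hour of collection. The comparison asks how livers on the lower food ration, without the hormone, differ from livers of mice not limited in this way.

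Pair feeding holds food intake equal between a drug group and a group without the drug. A mouse on a limited ration tends to eat it soon after it is offered and then to fast until the next meal, so pair feeding can alter the timing of meals as well as their amount. In the fasting liver, falling insulin and rising glucagon and glucocorticoids favour fatty acid oxidation, ketone production, breakdown of amino acids and release of glucose, while lipogenesis, driven by insulin through SREBP-1c, is lowered. Mealtime is also a strong cue for the liver's own circadian clock. In MASH, lipid-laden hepatocytes are accompanied by recruited macrophages, activated stellate cells and a reaction of bile duct cells.

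Depth differed between the groups in part. The total count per library ran from 9228127 to 12994187 in Vehicle, with a mean of 10146801.8, and from 10133289 to 12933324 in PairFed, with a mean of 12028901.2, a difference of 1882099.4 counts (exact permutation p = 0.0873, two-sided, 252 splits). Without PairFed 1 the exact permutation p was 0.0476, and without Vehicle 4 it was 0.0159. The deeper libraries, with totals above 12000000, were PairFed 2, 3, 4 and 5 and Vehicle 4. The other Vehicle libraries, PairFed 1 and all 5 GDF15 libraries were shallower. Of the 29 hepatocyte genes in the marker list all were tested, and they summed to between 129610 and 148470 CPM (counts relative to the scaled library total) in Vehicle and between 134270 and 160510 CPM in PairFed. No pair of libraries held identical values. The labels number the samples but do not say that each is a separate animal, so p-values measure only the spread between these samples.

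In PairFed livers 35 of the 12274 genes (0.285%) passed the threshold, an adjusted p below 0.05 from the quasi-likelihood test of edgeR after Benjamini-Hochberg adjustment over all tested genes. Of these, 18 genes (0.147%) rose and 17 (0.139%) fell. Most changes were small: the log2 fold changes ranged in size from 0.31 to 1.50, and 2 genes, Sox9 and H2-M2, changed at least 2-fold. The PairFed and Vehicle libraries did not overlap in 32 of the 35 genes, 18 higher and 14 lower, against 3.92% of all tested genes (2.21% higher and 1.71% lower). The rises included Fads1 and Fads2, desaturases of polyunsaturated fatty acids, and the falls included the lipase Lpl, the organic anion transporter Slc22a7, the transcription factor Sox9 and the splicing regulators Hnrnph1 and Tra2a. With upper-quartile scaling the split was 13 higher and 27 lower.

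The count of 35 varied with how depth was handled and with single libraries. After counts were thinned to the smallest total, edgeR called 26 genes, and 22 of the 35 were among them. With a term for the deeper libraries in the model, edgeR called 0 genes (1361 had an unadjusted p below 0.05), and the lowest adjusted p of any gene was 0.0696. All 35 genes kept their direction in that fit, each with an unadjusted p below 0.05, and the median ratio of their log2 fold change to that without the term was 0.943. In further fits PairFed 1 was set against Vehicle 1, 2, 3 and 5 (the shallower libraries alone), and PairFed 2 to 5 against Vehicle 4 (the deeper alone). Both fits also held the 5 GDF15 libraries, all shallower, and each had a lone library in a group, assumed to vary like the others. All 35 genes again kept their direction in both. For the 32 genes whose PairFed and Vehicle libraries did not overlap, this was all but fixed in advance, here and with the term for the deeper libraries. Leaving out PairFed 2, PairFed 4, Vehicle 1 or Vehicle 3 gave 0 calls each, with 1710, 1780, 1766 and 1517 genes at an unadjusted p below 0.05. Without PairFed 5 or without Vehicle 2 there were 11 calls, while there were 135 without PairFed 1 and 94 without Vehicle 5. No gene passed in all 10 of these fits, and the most that a gene passed was 6. DESeq2 called 339 genes and limma-voom called 38, with 35 and 32 of the 35 among them.

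**Figure D1:**
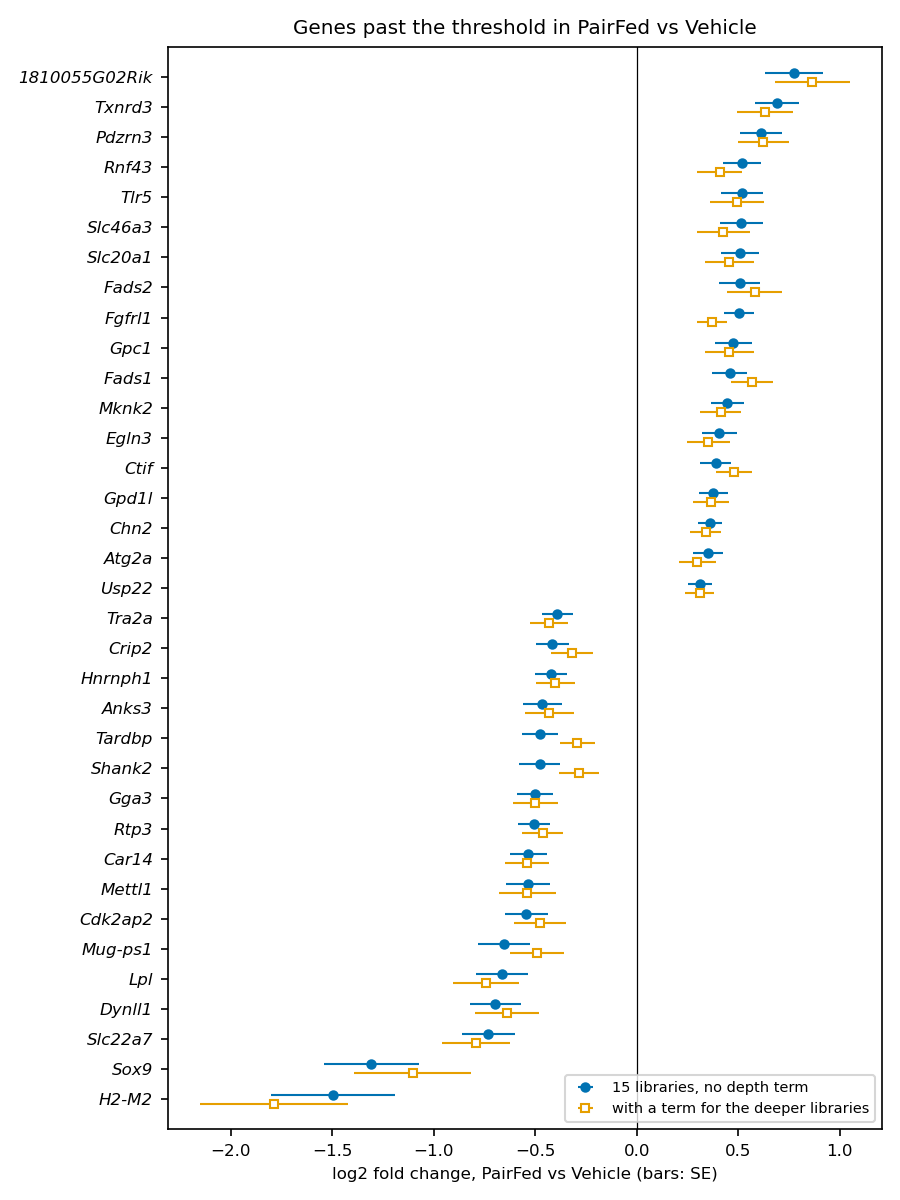
Log2 fold change of PairFed against Vehicle (x axis) for each of the 35 genes past the threshold (y axis), with bars of 1 standard error. Filled circles are from the model of 15 libraries and open squares from the same model with a term for the deeper libraries. Every gene lies on the same side of 0 in both, which was all but fixed in advance for the 32 whose groups did not overlap.

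Promoter sequences are shown for 3 of the genes that rose, because they hold the E-box CACGTG, the element bound by CLOCK and BMAL1 and by other basic helix-loop-helix factors, and clock genes are among those that moved with library depth. RefSeq gave a promoter window for 26 of the 35 genes. It ran from 250 bases before to 50 bases after a start site in GRCm38.p6 (the mm10 primary sequence). Where a gene had several windows, the first was used. The start site was not always the outer end of the gene. The Mettl1 window, on the plus strand, began at 127041682, while the gene starts at 127041549. CACGTG, which reads the same on both strands, was in 4 of the 26, against 10.2% of the 9847 tested genes with a window and 7.24% of all 27025 windows. The 4 genes were Fgfrl1, Slc20a1, Gpd1l and Mettl1, the last of which fell. The windows below are printed 5′ to 3′ on the strand of the gene, with CACGTG in capitals: Fgfrl1 at chr5:108693979-108694278 on the plus strand, Slc20a1 at chr2:129198523-129198822 on the plus strand and Gpd1l at chr9:114933938-114934237 on the minus strand.
Fgfrl1: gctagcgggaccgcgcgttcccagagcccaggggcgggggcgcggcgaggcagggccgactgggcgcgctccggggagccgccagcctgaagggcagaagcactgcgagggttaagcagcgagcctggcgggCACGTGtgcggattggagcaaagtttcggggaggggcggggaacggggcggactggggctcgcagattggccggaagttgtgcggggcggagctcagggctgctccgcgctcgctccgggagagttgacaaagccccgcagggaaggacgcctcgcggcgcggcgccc
Slc20a1: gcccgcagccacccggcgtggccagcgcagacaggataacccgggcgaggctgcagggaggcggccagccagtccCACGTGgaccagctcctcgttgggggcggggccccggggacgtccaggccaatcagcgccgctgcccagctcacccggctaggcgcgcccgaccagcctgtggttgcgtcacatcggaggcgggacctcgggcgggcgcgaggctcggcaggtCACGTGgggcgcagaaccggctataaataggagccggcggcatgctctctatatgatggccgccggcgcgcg
Gpd1l: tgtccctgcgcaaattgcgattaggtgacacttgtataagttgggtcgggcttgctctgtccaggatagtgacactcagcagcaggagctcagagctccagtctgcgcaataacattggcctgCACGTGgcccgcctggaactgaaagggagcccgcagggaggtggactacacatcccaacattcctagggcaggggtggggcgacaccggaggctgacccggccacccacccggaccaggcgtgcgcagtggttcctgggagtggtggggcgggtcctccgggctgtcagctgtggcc
The E-box occurs at 2 places in the Slc20a1 window. The other motifs searched on both strands gave shares close to or below those of tested genes: the GC box GGGCGG was in 65.4% of the 26 and in 63.4% of tested genes, and the TATA box TATAAA was in 7.69% and 7.34%. The sterol regulatory element TCACNCCAC, the FoxO motif TGTTTAC, the ATF4 motif TGATGNAA and the D-box TTATGTAA were in 0 of the 26 windows, against 1.06%, 2.58%, 2.22% and 0.538% of tested genes. These are matches of letters in a short window and no sites of binding were measured.

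Fads1 and Fads2 encode the front-end desaturases that make long polyunsaturated fatty acids from dietary ones and lie side by side on chromosome 19 at 10182877 to 10196874 and 10062765 to 10101503. Fads1 stood at 862, 927, 897, 773 and 1084 CPM in Vehicle 1 to 5 and at 1294, 1299, 1237, 1256 and 1154 CPM in PairFed 1 to 5. Every PairFed library was above every Vehicle library, and the rise was 0.46 ± 0.09 log2 (SE, adjusted p = 0.0360). Fads2 stood at 1472, 1402, 1236, 1115 and 1711 CPM in Vehicle and at 1801, 2014, 2186, 2041 and 1813 CPM in PairFed. It rose by 0.51 ± 0.10 (adjusted p = 0.0407), again without overlap, and Vehicle 5 was the highest Vehicle library for both genes. Fads3, the third gene of the cluster, was looked at after the values of its neighbours were seen and stood at 4.11 ± 1.30 CPM in Vehicle and 3.41 ± 0.517 CPM in PairFed (means ± SD, 5 libraries each), a difference of -0.26 ± 0.26 log2 (SE, adjusted p = 0.650). Lpl, the lipase that releases fatty acids from circulating triglyceride and is low in normal adult hepatocytes, stood at 96.7, 56.9, 73.9, 85.5 and 76.2 CPM in Vehicle and at 46.7, 40.0, 56.5, 52.4 and 50.2 CPM in PairFed. Vehicle 2 and PairFed 3 all but met, and Lpl fell by 0.66 ± 0.13 log2 (SE, adjusted p = 0.0449). Gpd1l, related to the enzyme that makes glycerol-3-phosphate, rose from 32.1 ± 2.27 to 41.8 ± 3.41 CPM (means ± SD, 5 libraries each; adjusted p = 0.0336). Among the shallower libraries alone the log2 differences were 0.45 for Fads1, 0.30 for Fads2 and -0.70 for Lpl, and among the deeper alone 0.68, 0.86 and -0.78. Fads1 and Fads2 passed in 2 of the 10 fits that leave out a library, and Lpl in 4.

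Transporters were the list with the most members past the threshold, 2 higher and 1 lower of 30 tested (6.67% and 3.33%). Over all tested genes the shares were 0.147% and 0.139%. The median log2 fold change was 0.20 against -0.00 over all tested genes. The lists were chosen with earlier results of these data known, so this rank is a description only. Slc22a7, an organic anion transporter of the hepatocyte's blood-facing membrane, stood at 19.1, 23.5, 14.3, 17.7 and 16.3 CPM in Vehicle and at 9.29, 11.9, 13.3, 9.52 and 10.6 CPM in PairFed. The highest PairFed library lay just under the lowest Vehicle library, and the fall was 0.73 ± 0.13 log2 (SE, adjusted p = 0.0327). Slc20a1, a sodium-dependent phosphate transporter, rose from 68.3 ± 5.18 to 97.2 ± 8.16 CPM (means ± SD, 5 libraries each; adjusted p = 0.0327). Slc46a3, a lysosomal carrier, rose from 26.4 ± 2.95 to 37.7 ± 4.56 CPM (adjusted p = 0.0478). Car14, a membrane carbonic anhydrase, and Rtp3, a receptor transporter protein expressed in liver, both fell without overlap. Car14 went from 36.6 ± 3.46 to 25.4 ± 3.39 CPM (adjusted p = 0.0250) and Rtp3 from 67.4 ± 3.79 to 47.5 ± 2.30 CPM (adjusted p = 0.0240).

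Fgfrl1, a fibroblast growth factor receptor that lacks the kinase domain, had the lowest p of the comparison and stood at 40.5, 40.1, 41.4, 49.5 and 39.2 CPM in Vehicle and at 54.7, 61.2, 62.2, 60.4 and 60.2 CPM in PairFed. In both groups the library that stood apart was the one of unlike depth, Vehicle 4 toward PairFed and PairFed 1 toward Vehicle. The rise was 0.50 ± 0.07 log2 (SE, adjusted p = 0.0240), and 0.37 ± 0.07 (adjusted p = 0.149) with the term for the deeper libraries. Rnf43, a ubiquitin ligase that removes Wnt receptors from the surface and is itself a Wnt target of hepatocytes near the central vein, rose from 26.2 ± 2.78 to 37.6 ± 3.58 CPM (means ± SD, 5 libraries each; adjusted p = 0.0327). Gpc1, a heparan sulfate proteoglycan that binds growth factors, rose by 0.48 ± 0.09 log2 (SE), and Tlr5, the receptor of bacterial flagellin, by 0.52 ± 0.10. Pdzrn3, also a ubiquitin ligase, rose by 0.61 ± 0.10 from a low level of 6.47 CPM. Chn2, which turns off the GTPase Rac, rose by 0.36 ± 0.06 and Mknk2, a kinase of the cap-binding factor eIF4E, by 0.45 ± 0.08.

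Txnrd3, a thioredoxin and glutathione reductase, stood at 4.75, 5.93, 5.41, 5.42 and 6.21 CPM in Vehicle and at 7.86, 9.77, 9.56, 9.06 and 8.40 CPM in PairFed. The groups were apart and the rise was 0.69 ± 0.11 log2 (SE, adjusted p = 0.0240). Atg2a, which moves lipid to growing autophagosomes, rose by 0.35 ± 0.07. Egln3, a prolyl hydroxylase that marks hypoxia-inducible factors for degradation, rose by 0.41 ± 0.08. Usp22, the deubiquitinase of the SAGA coactivator, had the smallest change, 0.31 ± 0.06. Ctif, which acts in translation from newly exported mRNA, rose by 0.39 ± 0.08, and the uncharacterised 1810055G02Rik by 0.77 ± 0.14.

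The largest falls were in Sox9 and H2-M2. Sox9, a transcription factor of bile duct cells and of hepatocytes beside the portal tract, stood at 15.9, 12.8, 21.2, 12 and 12.9 CPM in Vehicle and at 6.94, 3.10, 7.23, 6.75 and 6.21 CPM in PairFed. The groups were apart, PairFed 2 was the lowest library, and the fall was 1.31 ± 0.24 log2 (SE, adjusted p = 0.0336). In bulk liver, fewer cells of a type and less RNA per cell cannot be told apart. H2-M2, an MHC class I-like gene whose relatives can share its reads, stood at 4.75, 3.82, 4.16, 6.01 and 4.71 CPM in Vehicle and at 1.23, 1.27, 3.62, 1.15 and 1.02 CPM in PairFed. PairFed 3 alone lay close to Vehicle, and the fall was 1.50 ± 0.30 log2 (SE, adjusted p = 0.0477). Mug-ps1, a murinoglobulin pseudogene that can likewise share reads with its family, was at 178 ± 22.5 CPM in Vehicle and 113 ± 23.2 CPM in PairFed (means ± SD, 5 libraries each; adjusted p = 0.0400).

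Hnrnph1 and Tra2a, regulators of splicing, fell by 0.42 ± 0.08 and 0.39 ± 0.08 log2 (SE), and in both the groups did not overlap. Tardbp, which encodes the RNA-binding protein TDP-43, stood at 91.5, 96.3, 111, 80.1 and 84.4 CPM in Vehicle and at 81.3, 62.4, 62.2, 61.0 and 66.2 CPM in PairFed. Here PairFed 1 lay above Vehicle 4, the library of unlike depth in each group. The fall in Tardbp was 0.48 ± 0.09 log2 (SE, adjusted p = 0.0357), and the difference with the term for the deeper libraries was -0.29. Mettl1, a methyltransferase of transfer RNA, fell by 0.54 ± 0.11. Among genes of the cytoskeleton and of membrane traffic, Dynll1, a dynein light chain, fell from 19.2 ± 2.60 to 11.9 ± 0.955 CPM (means ± SD, 5 libraries each; adjusted p = 0.0327) and Gga3, an adaptor that sorts cargo at the Golgi, by 0.50 ± 0.09 log2 (SE). Cdk2ap2, a partner of the cell cycle kinase CDK2, fell by 0.54 ± 0.11, Anks3, an ankyrin repeat protein of cilia, by 0.47 ± 0.10, Crip2, a LIM domain protein, by 0.42 ± 0.08, and Shank2, a scaffold, by 0.48 ± 0.10. Crip2 and Shank2, with Tardbp, were the genes among the 35 whose groups overlapped. With the depth term Shank2 was at -0.29, and among the deeper libraries alone Crip2 was at -0.12. Among the shallower libraries alone Car14 was at -0.26, Mug-ps1 at -0.24, Tardbp at -0.24, Atg2a at 0.21 and Egln3 at 0.27.

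**Figure D2:**
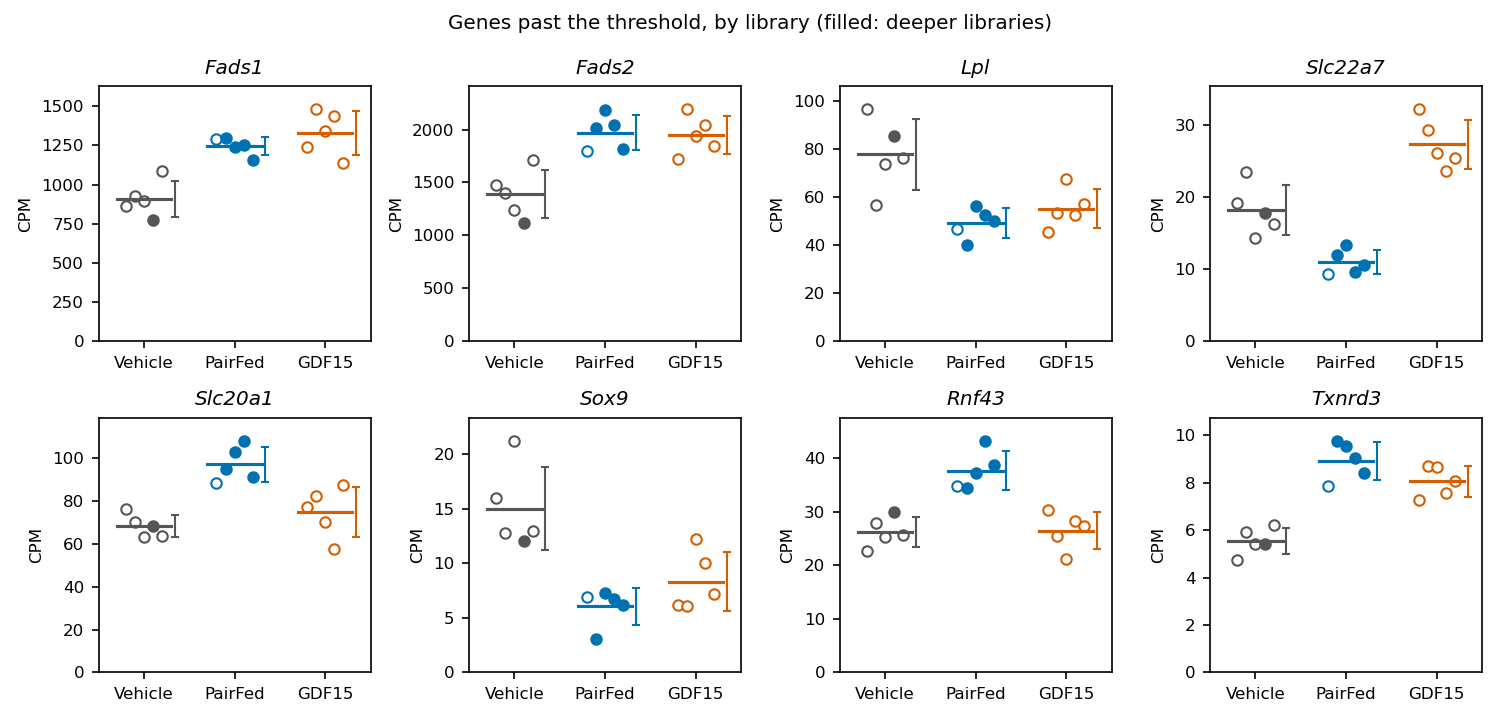
CPM (y axes, from 0) of 8 of the genes past the threshold in every library, by group (x axis). Points are libraries, filled for the deeper libraries, horizontal lines are group means and bars 1 SD (n = 5). In each of the 8 genes the PairFed libraries lie wholly above or below the Vehicle libraries. For Slc22a7 the GDF15 libraries lie above all PairFed libraries, from 23.6 to 32.2 CPM.

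The ration of the PairFed mice was set by what the GDF15 mice ate, so the contrast of GDF15 with PairFed tests where the livers differed at matched intake. All 5 GDF15 libraries were shallower and 4 of the 5 PairFed libraries deeper, so depth and group were nearly tied in it. It called 96 genes (0.782% of those tested), and 8 of the 35 were among them. The 35 had been picked with these same PairFed libraries, which favours their passing here. The 8, and where their GDF15 means lay, are therefore given as a description. Slc22a7 was at 10.9 CPM in PairFed and 27.3 ± 3.40 CPM in GDF15 (mean ± SD, n = 5), a difference of 1.31 ± 0.13 log2 (SE, adjusted p = 4.33e-05), with a Vehicle mean of 18.2 CPM between them. Mknk2 was higher still in GDF15, at 387 CPM against 298 CPM in PairFed and 218 CPM in Vehicle (adjusted p = 0.0348). With a term for the deeper libraries, an alternative added after the data were seen, the contrast called 9 genes (0.0733%), and Slc22a7 was the 1 among the 35, at 1.39 ± 0.19 (SE, adjusted p = 0.00843). The other 7 kept their direction in that fit with adjusted p-values of 0.0636 to 0.572. In 6 of the 8, all but Slc22a7 and Mknk2, the GDF15 mean lay near the Vehicle mean. Rnf43 was at 26.4 CPM in GDF15, 37.6 CPM in PairFed and 26.2 CPM in Vehicle, and the difference between GDF15 and PairFed was -0.51 ± 0.10 log2 (SE, adjusted p = 0.0178). The same contrast gave -0.53 ± 0.09 for Gpc1, -0.56 ± 0.11 for Tlr5 and -0.43 ± 0.09 for Egln3. It gave 0.63 ± 0.09 for Car14 and 0.49 ± 0.10 for Shank2, the latter 0.24 with the depth term. For the other 27 genes, Fads1, Fads2, Lpl and Sox9 included, the contrast was not past the threshold, which does not show that the groups were alike. Since Vehicle is common to both comparisons, that the GDF15 mean lay on the PairFed side of Vehicle in 29 of the 35 is given as a description.

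Gene lists were described by counts and medians. Of 48 lists, 37 had no member past the threshold, 12 of the 35 genes were in at least 1 list, and 23 were in none. Over all tested genes 8.66% were higher and 8.25% lower at an unadjusted p below 0.05, 49.9% had a log2 fold change above 0 and 50.1% below, and the median was -0.00. As background for the calls per list, DESeq2 called 184 of the 12274 genes higher and 155 lower, and limma-voom 18 and 20.

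Genes of fasting metabolism stood mostly above Vehicle by small amounts. In fatty acid oxidation and ketogenesis 37 of 39 genes had a positive log2 fold change with a median of 0.15, edgeR called 0, 11 were higher and 1 lower at an unadjusted p below 0.05, DESeq2 called 3 and limma-voom 0. Cpt1a, the gate of fatty acid entry into mitochondria, stood at 500, 464, 290, 500 and 606 CPM in Vehicle and at 572, 730, 854, 781 and 717 CPM in PairFed. PairFed 1 lay within the Vehicle range, and the difference was 0.63 ± 0.15 log2 (SE, adjusted p = 0.0781). Slc22a5, the carnitine transporter, differed by 0.63 ± 0.15 (adjusted p = 0.0753). Fgf21, a fasting hormone of the liver that is also raised by stress in the endoplasmic reticulum, stood lower, at 8.62 ± 3.49 CPM in PairFed and 14.0 ± 3.85 CPM in Vehicle (means ± SD, 5 libraries each; adjusted p = 0.268). In amino acid breakdown and the urea cycle, 31 of 39 genes were positive with a median of 0.17, edgeR called 0, 16 were higher and 0 lower at an unadjusted p below 0.05, DESeq2 called 1 and limma-voom 0. Gpt2, which moves the amino group of alanine, came closest, at 613 ± 65.7 CPM in Vehicle and 776 ± 43.1 CPM in PairFed (means ± SD, 5 libraries each; adjusted p = 0.0578). Of gluconeogenesis and glycogen, 15 of 21 genes were positive with a median of 0.05, and edgeR called 0, with 8 higher and 4 lower at an unadjusted p below 0.05, against 3 calls by DESeq2 and 0 by limma-voom. Pck1, the control point of glucose production, differed by 0.87 ± 0.33 log2 (SE, adjusted p = 0.204), and G6pc, the last enzyme of glucose release, by 0.05 ± 0.39 (adjusted p = 0.964), with a sign that depended on single libraries. Irs2, an insulin signalling gene that rises in fasting, ranged from 19.4 to 69 CPM in Vehicle and from 46.3 to 197 CPM in PairFed, with groups that overlapped (adjusted p = 0.184).

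Lipid synthesis did not move as a block. In lipogenesis 2 of 29 genes passed the threshold, Fads1 and Fads2, and the median was 0.00, negative in 9 of the 22 fits compared. Fasn, the fatty acid synthase, ranged from 1513 to 5565 CPM in Vehicle and from 1169 to 3839 CPM in PairFed, a difference of -0.60 ± 0.37 log2 (SE, adjusted p = 0.433) that was positive with the term for the deeper libraries. Vehicle 3 was the highest library for Fasn and for Acly, which supplies it with acetyl-CoA and stood at 2303 CPM in Vehicle 3 and between 360 and 899 CPM in the other Vehicle libraries. Srebf1, which encodes SREBP-1c, differed by 0.03 ± 0.15 (adjusted p = 0.929) and Scd1, the desaturase that makes oleate, by 0.33 ± 0.25 (adjusted p = 0.522). For both, the sign turned in at least 1 alternative fit. In cholesterol synthesis and uptake 27 of 32 genes were positive with a median of 0.27, or 0.39 with the term for the deeper libraries. EdgeR called 0 of them, with 10 higher and 1 lower at an unadjusted p below 0.05, against 1 call by DESeq2 and 0 by limma-voom. Lipg, the endothelial lipase, was apart between the groups, at 16.6 ± 2.73 and 32.9 ± 6.41 CPM (means ± SD, 5 libraries each; adjusted p = 0.0735), as was Por, the electron donor of cytochromes P450, at 142 ± 45.1 and 264 ± 46.7 CPM (adjusted p = 0.128).

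Genes of protein folding in the endoplasmic reticulum stood below Vehicle as a set. Of 25 tested, 24 had a negative log2 fold change, with a median of -0.38. EdgeR called 0, while 18 were lower at an unadjusted p below 0.05 and 0 were higher, DESeq2 called 12 lower and limma-voom 1. Hspa5, the chaperone BiP, stood at 1095, 1225, 1389, 962 and 886 CPM in Vehicle and at 933, 759, 486, 547 and 699 CPM in PairFed. PairFed 1, the shallower PairFed library, lay within the Vehicle range, and the difference was -0.70 ± 0.16 log2 (SE, adjusted p = 0.0735), or -0.46 with the term for the deeper libraries. Creld2, a secreted target of the unfolded protein response, was at 53.0 ± 12.1 CPM in Vehicle and 28.9 ± 5.37 CPM in PairFed (means ± SD, 5 libraries each), without overlap (adjusted p = 0.0503). The median of the list was -0.24 with the term for the deeper libraries, -0.11 among the shallower libraries and -0.36 among the deeper. Cytosolic heat shock genes had a median of -0.20, or -0.13 with the depth term, with 16 of 22 negative and 10 lower and 1 higher at an unadjusted p below 0.05. EdgeR called 0 of these, DESeq2 3 and limma-voom 1, and Hsph1 came closest at -0.59 ± 0.12 log2 (SE, adjusted p = 0.0514). Mthfd2, a mitochondrial folate enzyme induced by ATF4, was at 3.99 ± 0.996 CPM in Vehicle and 1.89 ± 0.402 CPM in PairFed (means ± SD, 5 libraries each; adjusted p = 0.0503).

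Some clock genes divided the libraries by depth and others by group. Dbp, an output gene of the clock with a steep daily rhythm, stood at 44.8, 44.5, 2.50, 152 and 32.4 CPM in Vehicle and at 35.7, 143, 223, 152 and 81.8 CPM in PairFed. Among these 10 libraries the 5 highest are the 5 deeper ones and the 5 lowest are the 5 shallower ones, while the GDF15 libraries, all shallower, ranged from 55.7 to 110 CPM. Its log2 difference was 1.19 ± 0.70 (SE, adjusted p = 0.409) without and 0.08 with the term for the deeper libraries. Arntl, the gene of BMAL1, was at 12.8, 18.3, 35.3, 5.71 and 17.3 CPM in Vehicle and at 11.9, 2.86, 3.05, 3.84 and 8.17 CPM in PairFed. It divided these 10 libraries in the same way, with each deeper library lower than each shallower one, and ranged from 3.89 to 17.7 CPM in GDF15. Ciart, a repressor of the clock, ranged from 0.624 to 4.69 CPM in Vehicle and from 4.39 to 18.8 CPM in PairFed, and the overlap was between Vehicle 4 and PairFed 1 (adjusted p = 0.0898). Per1, also a repressor within the clock, divided the libraries by group. Per1 stood at 32.2, 32.5, 17.1, 39.3 and 36.2 CPM in Vehicle and at 74.3, 81.8, 68.7, 51.8 and 62.4 CPM in PairFed. It was higher in every PairFed library, PairFed 1 included, with a log2 difference of 1.10 ± 0.24 (SE, adjusted p = 0.0735) and of 1.04 with the depth term. Cry2, a further repressor, was at 32.6 ± 4.11 CPM in Vehicle and 44.6 ± 4.16 CPM in PairFed (means ± SD, 5 libraries each; adjusted p = 0.0514), and Bhlhe40, which represses clock targets, at 168 ± 20.7 and 271 ± 63.4 CPM (adjusted p = 0.0897). Over the 23 clock genes the median was 0.37, or 0.12 with the depth term. EdgeR called 0, with 8 higher and 4 lower at an unadjusted p below 0.05, DESeq2 called 6 and limma-voom 1. The part of collection hour or of handling in these differences was not tested, since the sources give neither. The depth term itself was past the threshold for 10 genes (0.0815%), among them the clock repressor Bhlhe41 and the iron genes Hamp and Tfrc, and none of the 35 was among them.

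**Figure D3:**
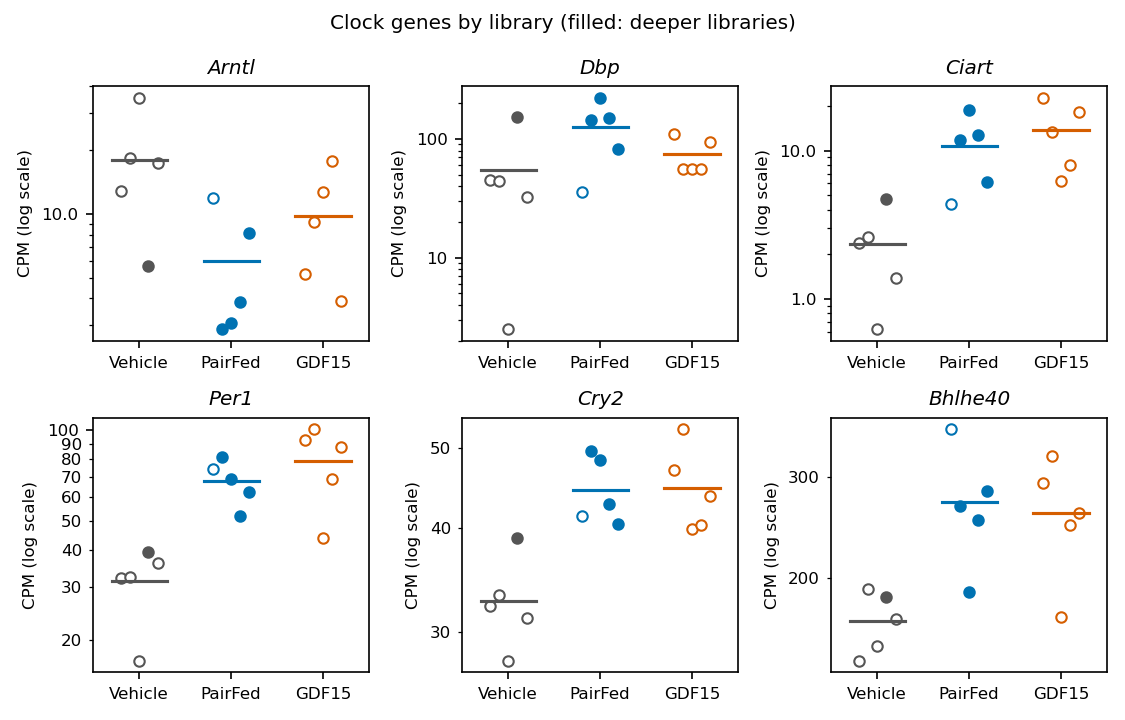
CPM (y axes, log scale) of 6 clock genes in every library, by group (x axis). Points are libraries, filled for the deeper libraries, and lines are group means. Dbp and Arntl divide PairFed and Vehicle by depth, with Vehicle 4 at 152 CPM of Dbp among the PairFed libraries, and Per1 divides them by group.

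Genes induced by glucocorticoids had a median of 0.39, with 28 of 34 positive, or 0.44 with the depth term, 0.62 among the shallower libraries and 0.25 among the deeper. EdgeR called 0, with 10 higher and 3 lower at an unadjusted p below 0.05, DESeq2 called 4 and limma-voom 1. The members did not move as a single block. Fkbp5, a co-chaperone of the glucocorticoid receptor, was at 26.2 ± 4.25 CPM in Vehicle and 32.8 ± 5.41 CPM in PairFed (means ± SD, 5 libraries each; adjusted p = 0.319). Tsc22d3, a classical target that carries anti-inflammatory action, stood lower, at 83.5, 81.0, 63.0, 79.3 and 76.0 CPM in Vehicle and at 59.7, 41.1, 49.6, 48.6 and 54.7 CPM in PairFed. The groups were apart, and the difference was -0.60 ± 0.15 log2 (SE, adjusted p = 0.0792). The metallothionein Mt1 ranged from 26.1 to 72.5 CPM in Vehicle and from 95.2 to 149 CPM in PairFed, without overlap (adjusted p = 0.103). Immediate-early genes, which respond to handling and to hormones within minutes, had a median of 0.29, with 0.53 under the depth term and 0.95 among the shallower libraries, and 21 of 26 were positive. EdgeR called 0 of them, with 7 higher and 2 lower at an unadjusted p below 0.05, DESeq2 called 3 and limma-voom 0. Myc, a growth regulator, spread from 13.3 to 135 CPM in PairFed and stood at 10.4 ± 3.68 CPM in Vehicle (mean ± SD, n = 5; adjusted p = 0.119). Igfbp1, a hormone-responsive binding protein of insulin-like growth factors, spread from 166 to 961 CPM in PairFed and from 120 to 469 CPM in Vehicle. The growth hormone and IGF1 list had a median of 0.03, or -0.02 with the depth term, with 15 of 27 positive. The median kept its sign in 17 of 22 fits. EdgeR called 0, with 4 higher and 5 lower at an unadjusted p below 0.05. DESeq2 called 2 higher and 2 lower, and limma-voom 1 lower. Of its members, Serpina1e and Mup20 belong to families with near-identical copies that can share reads. Serpina1e was lower without overlap, at -1.69 ± 0.44 log2 (SE, adjusted p = 0.103), and Mup20 was at -0.47 ± 0.14 (adjusted p = 0.117) with PairFed 5 inside the Vehicle range. Cish, a feedback inhibitor of the same receptor, was higher at 1.56 ± 0.47 (adjusted p = 0.136).

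**Figure D4:**
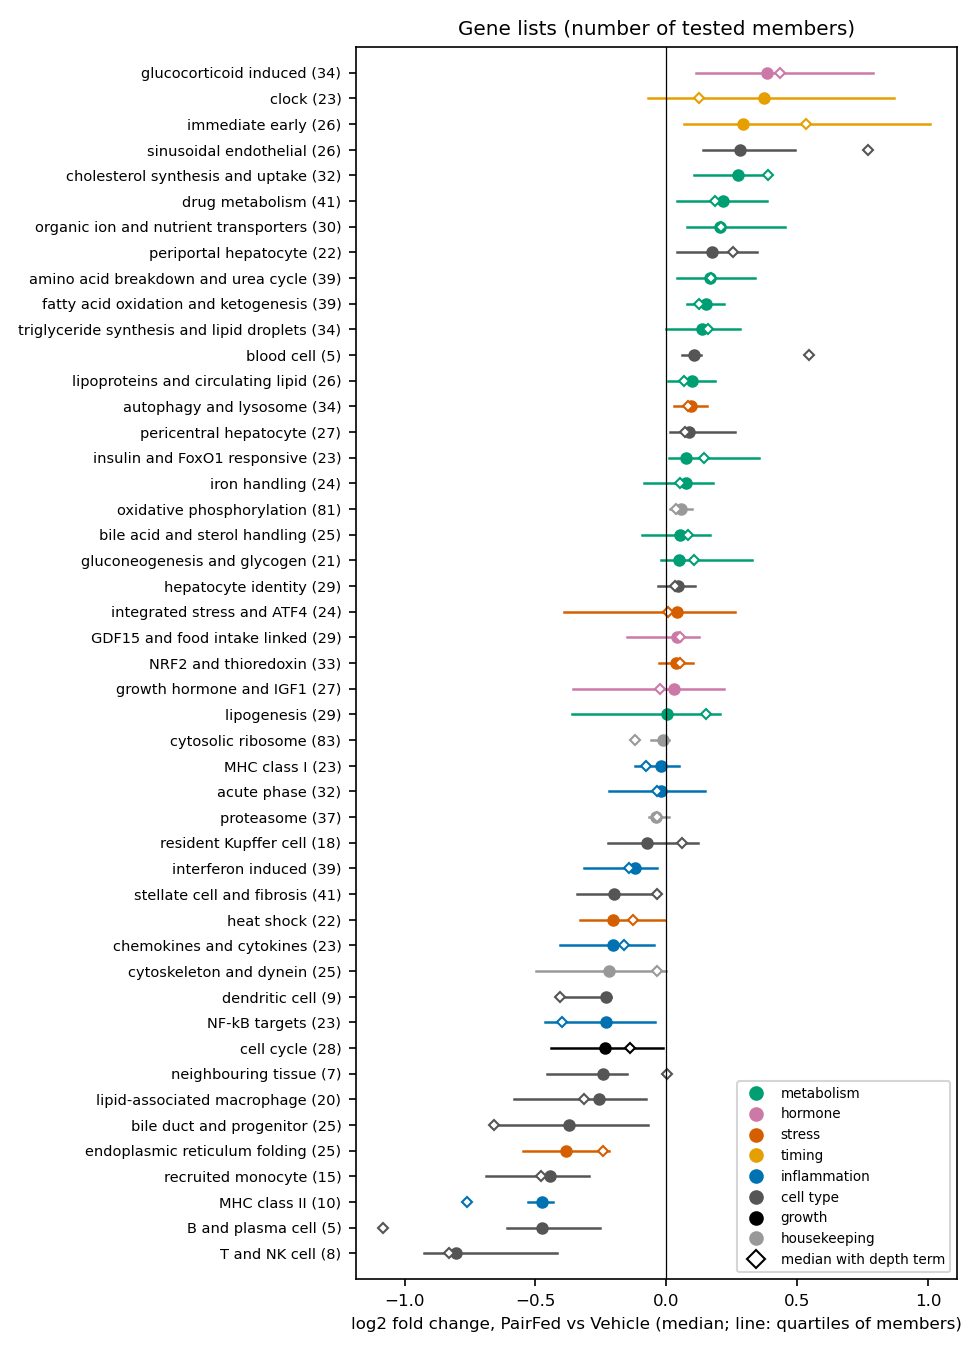
Median log2 fold change of PairFed against Vehicle (x axis) for each list with at least 5 tested members (y axis, number tested in brackets). Lines span the quartiles of the members, colours give the role of the list, and open diamonds are the medians with a term for the deeper libraries. Endoplasmic reticulum folding lies at -0.38 and MHC class II at -0.48, while sinusoidal endothelial markers move from 0.28 to 0.77 with the term.

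In the MHC class II pathway all 10 tested genes were negative with a median of -0.48, or -0.76 with the term for the deeper libraries. EdgeR called 0, with 8 lower and 0 higher at an unadjusted p below 0.05, DESeq2 called 5 lower and limma-voom 0. Ciita, the master regulator of class II genes, stood at 7.92, 6.94, 5.30, 9.30 and 4.92 CPM in Vehicle and at 3.06, 3.26, 4.50, 4.37 and 4.79 CPM in PairFed. The groups were apart by a small margin, and the difference was -0.79 ± 0.19 log2 (SE, adjusted p = 0.0735). Ctss, the protease that trims the class II invariant chain, was at 92.1 ± 10.4 CPM in Vehicle and 62.1 ± 6.09 CPM in PairFed (means ± SD, 5 libraries each; adjusted p = 0.0603). Cd74, the invariant chain itself, ranged from 216 to 316 CPM in Vehicle and from 160 to 236 CPM in PairFed, and the groups overlapped (adjusted p = 0.170). Class I genes had a median of -0.02, with 10 of 23 positive, and H2-M2 was the single member past the threshold. Targets of NF-kB had a median of -0.23, or -0.40 with the depth term and -0.44 among the shallower libraries, with 7 of 23 lower at an unadjusted p below 0.05, while Tlr5, listed among them, rose. Cxcl10, a T cell attractant, was at 8.33 ± 1.29 CPM in Vehicle and 5.48 ± 0.866 CPM in PairFed, without overlap (adjusted p = 0.0972).

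Markers of the other cells that a piece of liver could hold were also counted. All 15 tested markers of recruited monocytes were negative, with a median of -0.44 and a summed level of 226 to 366 CPM in Vehicle and 196 to 274 CPM in PairFed. EdgeR called 0, 6 were lower and 0 higher at an unadjusted p below 0.05, and DESeq2 and limma-voom each called 0. Lipid-associated macrophage genes, which mark scavenging macrophages of MASH, were negative in 17 of 20 with a median of -0.26, and Lpl, which macrophages also express, was the 1 member past the threshold. Trem2, their defining receptor, was at 12.5 ± 2.84 CPM in Vehicle and 8.41 ± 1.64 CPM in PairFed (means ± SD, 5 libraries each; adjusted p = 0.133). Markers of resident Kupffer cells had a median of -0.07, which was 0.06 with the term for the deeper libraries and 0.26 among the deeper, and which also turned sign without PairFed 5, with 2 of 18 lower at an unadjusted p below 0.05, and Clec4f, the marker of that cell type in mice, differed by 0.03 ± 0.18 log2 (SE, adjusted p = 0.944), with a sign that turned without PairFed 2, PairFed 4 or Vehicle 4. T and NK cell markers were near the floor, summing to 12.9 to 22.6 CPM in Vehicle and 12.6 to 17.6 CPM in PairFed over 8 tested genes. Of these, 7 were negative and 1 positive, with a median of -0.80, or -0.83 with the depth term. At an unadjusted p below 0.05, 5 were lower and 0 higher in edgeR, and edgeR, DESeq2 and limma-voom each called 0. The lists of dendritic cells, B and plasma cells, neutrophils, blood cells and neighbouring tissue had 9, 5, 3, 5 and 7 tested members, with medians of -0.23, -0.48, -0.24, 0.11 and -0.24, or -0.41, -1.08, -0.02, 0.54 and 0.00 with the depth term. EdgeR and limma-voom called 0 in each, DESeq2 called 1 in the first and 1 in the last, and 3, 0, 0, 0 and 1 had an unadjusted p below 0.05. The part of these cells in the falls of Lpl and the class II genes was not tested.

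Bile duct and progenitor markers, among which Sox9 is counted, had a median of -0.37, or -0.66 with the term for the deeper libraries and -0.64 among the shallower, with 21 of 25 negative, and Sox9 alone passed the threshold. Krt19, the duct keratin, was at 3.92 ± 1.36 CPM in Vehicle and 2.29 ± 0.428 CPM in PairFed (means ± SD, 5 libraries each; adjusted p = 0.240), and Dcdc2a, a gene of cilia, differed by -0.89 ± 0.23 log2 (SE, adjusted p = 0.0808). Spp1, made by duct cells and macrophages, ranged from 174 to 436 CPM in Vehicle and from 144 to 249 CPM in PairFed, with overlap (adjusted p = 0.303). The whole list summed to 1150 to 1761 CPM in Vehicle and to 1166 to 1400 CPM in PairFed, ranges that overlapped. The share of duct cells in the fall of Sox9 was not tested. Stellate cell and fibrosis genes were negative in 36 of 41 with a median of -0.20, or -0.04 with the term for the deeper libraries and 0.19 among the deeper alone, and 3 were lower at an unadjusted p below 0.05. EdgeR, DESeq2 and limma-voom each called 0 of them. Col1a1, the main fibrillar collagen, ranged from 52.2 to 132 CPM in Vehicle and from 29.3 to 84.7 CPM in PairFed (adjusted p = 0.471).

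Sinusoidal endothelial markers went the other way, with 24 of 26 positive and a median of 0.28, yet 0 were past an unadjusted p of 0.05 and edgeR, DESeq2 and limma-voom each called 0. Here Vehicle 4 was the lowest of the 10 libraries, at -0.69 log2 from the Vehicle mean. The median was 0.28 among the shallower libraries and 1.18 among the deeper, in which Vehicle 4 is the whole Vehicle arm. Hepatocyte identity genes had a median of 0.04, periportal genes 0.18 and pericentral genes 0.08. Sox9, which fell, was the periportal member past the threshold, and Rnf43, which rose, the pericentral one. Of 22 periportal genes 19 were positive, with 10 higher and 1 lower at an unadjusted p below 0.05 in edgeR. Of 27 pericentral genes 21 were positive, with 6 higher and 2 lower. The 81 genes of oxidative phosphorylation had a median of 0.06 and the 83 of the cytosolic ribosome -0.01, with 67 and 23 positive.

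**Figure D5:**
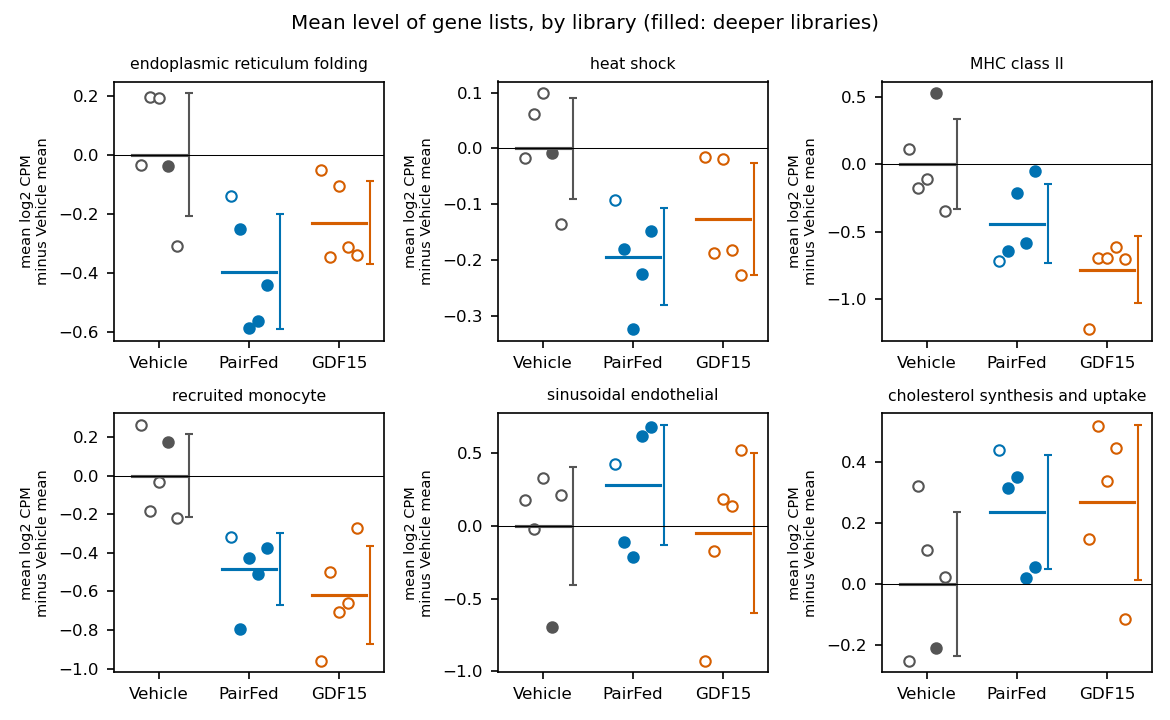
Mean log2 CPM of the members of 6 lists in every library, less the mean of the Vehicle libraries (y axes), by group (x axis). Points are libraries, filled for the deeper libraries, thick lines are group means and bars 1 SD (n = 5). The mean of the recruited monocyte markers was lower in all PairFed than in all Vehicle libraries, while 0 of the single markers had groups apart. The means of the transporter, autophagy and clock lists, not drawn, were higher in all PairFed than in all Vehicle libraries. In the sinusoidal endothelial list Vehicle 4 stood at -0.69.

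Outside the lists, the largest differences among genes with groups apart but not past the threshold included kinases and an enzyme of heme synthesis. Plk3, a stress-responsive kinase, stood at 80.7, 98.3, 59.9, 66.7 and 98.0 CPM in Vehicle and at 256, 285, 112, 161 and 154 CPM in PairFed (adjusted p = 0.0735). Pim3, a kinase, was at 46.2 ± 21.0 and 119 ± 15.9 CPM (means ± SD, 5 libraries each; adjusted p = 0.111), and Alas1, the first enzyme of heme synthesis and a fasting gene, at 286 ± 95.1 and 628 ± 238 CPM (adjusted p = 0.136). In each of the 3 genes every PairFed library lay above every Vehicle library. On the low side, Cdc42ep3, a binder of the GTPase CDC42, was at 3.18 ± 0.567 CPM in Vehicle and 1.30 ± 0.557 CPM in PairFed (adjusted p = 0.0715), without overlap.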

How the data were processed

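Liver RNA was made into libraries with a directional kit, per the labels' protocols. Salmon, which estimates counts per transcript, DESeq2 and the build mm10 are named in the submitters' processing notes. The table the authors deposited holds whole numbers per gene symbol for 15302 genes, taken here to be rounded estimated counts. The strand setting is not given in the sources used here, so overlapping and antisense genes can hold each other's reads, as can near-identical copies. Columns gave the group but not the animal, and the numbers 1 to 5 are names only.

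EdgeR 4.0.16 (R 4.3.3) was used with filterByExpr (count of 10, total of 15), which kept 12274 genes with 99.9% of counts. TMM scaling and a robust quasi-likelihood fit of all 15 libraries followed (common biological coefficient of variation 13.3%). SEs were derived from the F statistic, and adjusted p-values in the text come from this fit where no other tool is given. The method was also run on simulated counts without an effect of depth on expression, where the smallest planted changes were often missed. CPM were computed here. Positions are RefSeq GRCm38.p6, matched by symbol for 15290 genes. Genes named were all those past the threshold, the largest changes among others with groups apart (8 each way), the 3 members of smallest p in each list, and fixed genes of food restriction, and not all are printed. Fads3 and the genes named for the depth term lie outside this rule and were chosen after their values were seen. The comparison, the lists and the tests were chosen with earlier results of these data known. Alternatives were other scalings and filters, DESeq2 1.42.0, limma-voom 3.58.1, a fit of the 10 libraries, a term for or a split by depth, counts thinned to the smallest total, and leaving out each library. The depth term in the contrast of GDF15 with PairFed was added after seeing the data.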

Additional observations from a re-analysis of the deposited data

Results flagged for a closer look

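In 16 of 164 groups of 5 values tested, the highest or lowest library lay far from the others by Dixon's criterion, which chance alone meets in about 1 group in 20.

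Vehicle 4 was the far library for its total count of 12994187, next to 9906526, for Fgfrl1 at 49.5 CPM, next to 41.4, for the clock output gene Dbp at 152 CPM, next to 44.8, and for the Kupffer cell marker Clec4f at 56.0 CPM, next to 74.4. PairFed 1 was the far library for its total of 10133289, next to 12137462, for Fgfrl1 at 54.7 CPM, next to 60.2, and for Tardbp at 81.3 CPM, next to 66.2. These are the libraries whose depth was unlike the rest of their group.

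PairFed 2 stood apart for Sox9 at 3.10 CPM, for Mthfd2 at 1.19 CPM and for Cish at 46.7 CPM. PairFed 3 did so for Gga3 at 9.48 CPM and for H2-M2 at 3.62 CPM, PairFed 4 for Dynll1 at 10.2 CPM, and PairFed 5 for Crip2 at 58.7 CPM and Mup20 at 6535 CPM. Vehicle 3 stood apart for Acly at 2303 CPM, next to 899.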

How the results depend on the processing

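The 35 calls (18 higher, 17 lower) became 339 (184 and 155) with the DESeq2 Wald test, and 0 in 3 fits: a term for depth, the shallower libraries alone and the deeper alone, where edgeR had 1361, 514 and 926 genes at an unadjusted p below 0.05. The lower genes numbered 27 with upper-quartile scaling, 32 with a filter of 10 CPM in 5 libraries (52 calls in all) and 11 with counts thinned to the smallest total. Leaving out each library in turn gave from 0 to 135 calls, with 0 to 64 higher and 0 to 71 lower. Both depth splits and each omission use fewer libraries, while the fit with a term for depth kept every library and called 0 genes. Calls rose to 135 without PairFed 1 and to 94 without Vehicle 5. The cause of these shifts in the count was not tested. The 35 genes kept their direction in every fit in which they were tested. They had been picked with these same libraries, and in 32 of them the PairFed and Vehicle libraries did not overlap. A fit on part of the libraries could hardly turn the sign of those 32. Of the 35, 8 differed between GDF15 and PairFed, and 1 did with a term for depth, added after the data were seen. The difference in total count ran from 1652430.7 to 2593945.7 over these omissions, and was 2356002.45 without PairFed 1 and 2593945.7 without Vehicle 4, the omissions that took it past the threshold.

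Genes whose sign turned were all short of the threshold. With the depth term Fasn was at 0.11 and Acly at 0.33 log2, in the shallower alone at 0.12 and 0.083, and in the deeper alone at 0.093 and 0.59. Scd1 was at -0.10 in the shallower alone, and Srebf1 at -0.12 and Dbp at -0.022 in the deeper alone. Over the omissions of single libraries, G6pc ran from -0.14 to 0.24, Srebf1 from -0.061 to 0.088 and Clec4f from -0.057 to 0.13. No paired analysis was possible because the columns cannot be tied to animals and the labels share no replicate numbers between groups. Depth limits genes near 1 CPM, where a library holds about 10 counts.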
